A study of Saccharomyces cerevisiae with 12 samples.

Results

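The messages of 10 genes of ubiquitin signalling were followed in RNA that co-precipitated with export factors of budding yeast. The genes were UBI4, the segregase gene CDC48, its cofactor genes UFD1, NPL4, SHP1 and DOA1, and the ubiquitin ligase genes UFD4, RSP5, HUL5 and SAN1. They were taken by name for the function of their proteins and not by a measured value. All 10 were found among the 7126 features of each count table, and all 10 were among the 5245 features that passed a filter on low counts and entered the tests.

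Ubiquitin is a small protein that an activating enzyme, conjugating enzymes and ligases attach to other proteins, often as chains that mark them for the proteasome. Cdc48 is an ATPase that pulls ubiquitin-marked proteins out of complexes and membranes, and its cofactors choose what it works on and what happens to the chain. Quality-control ligases recognise misfolded proteins, which accumulate when cells are heated, and free ubiquitin is drawn down under such stress.

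RNA bound to Npl3, a shuttling mRNA-binding protein, and to Mex67, the main mRNA export receptor, was recovered by immunoprecipitation (IP) after UV cross-linking and was counted per gene. Cells of strain HKY157 (Npl3), strain HKY1266 (Mex67) and control strains without a tag (HKY36 and HKY381) grew in rich medium at 25 °C, and each culture was then divided and held for 30 min at 25 °C or at 42 °C. This gave 6 groups of 2 libraries, which the series design calls biological replicates: no tag, Npl3 IP and Mex67 IP, each at both temperatures. The titles of all 4 control libraries begin with the number of HKY36, while their strain fields name both control strains. The labels do not say which samples were taken through the c-myc antibody and which through the GFP-Trap beads, and such a difference cannot be told apart from the difference between the proteins.

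Total counts ranged from 87741 to 1140349 per library, the smallest being replicate 1 of the heated control. That library also lacked the heat shift of the others: it held 301.1 CPM (a library's counts of a gene as a share of its total, scaled by TMM) of HSP26, a small heat shock protein gene, where the other 5 heated libraries held 3553 to 10330 and the 6 libraries at 25 °C held 56.82 to 634.5. The values of single genes that rest on this library are therefore also given without it. Markers of mating type differed between replicates and between strains. The 5 a-cell markers summed to 15.51 to 124.1 CPM in replicate 1 of the 6 groups and to 483.6 to 1872 in replicate 2, with STE2 at 0 counts in replicate 1 of Npl3 at 25 °C and of the heated control, and BAR1 at 0 in replicate 1 of Mex67 at 25 °C and of the heated control. The 4 alpha-cell markers summed to 1985 to 2670 CPM in the 4 control libraries and to 13.65 to 459.8 in the 4 Npl3 libraries, with MF(ALPHA)2 at 0 counts in replicate 1 of heated Npl3. In Mex67 IP they summed to 2985 and 215.5 CPM at 25 °C and to 515.8 and 522 at 42 °C, so that the libraries of replicate 1, labelled as 1 divided culture, differed. The part of these differences in the comparisons between strains and within cultures was not tested. In such bulk samples, fewer cells of a type and less RNA per cell cannot be told apart, and a CPM is a share of the recovered RNA and not the amount of a message in the cell.

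Levels were first set side by side per kilobase of gene length. CDC48 had the highest mean, 591.1 ± 126.4 CPM per kb (SD, n = 12 libraries), and was higher than UBI4, at 219.2 ± 107.8, in 11 of the 12 libraries. SHP1 followed at 153.3 ± 34.92 CPM per kb and RSP5 at 129.2 ± 27.74. These 4 genes lay above the median of 45.79 CPM per kb over 5147 protein-coding genes. CDC48 was at the 95.47th percentile of the mean level and UBI4 at the 87.35th. UFD1, DOA1 and UFD4 also lay above that median, at the 65.4th, 61.06th and 50.65th percentiles.

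UFD1, at 72.47 ± 16.5 CPM per kb, lay below RSP5 in 12 of the 12 libraries. The order of the next genes was less sharp: UFD1 exceeded DOA1 (63.47 ± 12.5) in 7 of 12 libraries, DOA1 exceeded UFD4 (46.48 ± 10.67) in 9, UFD4 exceeded NPL4 (40.02 ± 12) in 6, and NPL4 exceeded SAN1 (37.3 ± 6.329) in 5. The differences between these neighbours were not tested. HUL5 had the lowest mean, 23.24 ± 5.253 CPM per kb, and lay below SAN1 in 12 of 12 libraries.

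**Figure D1:**
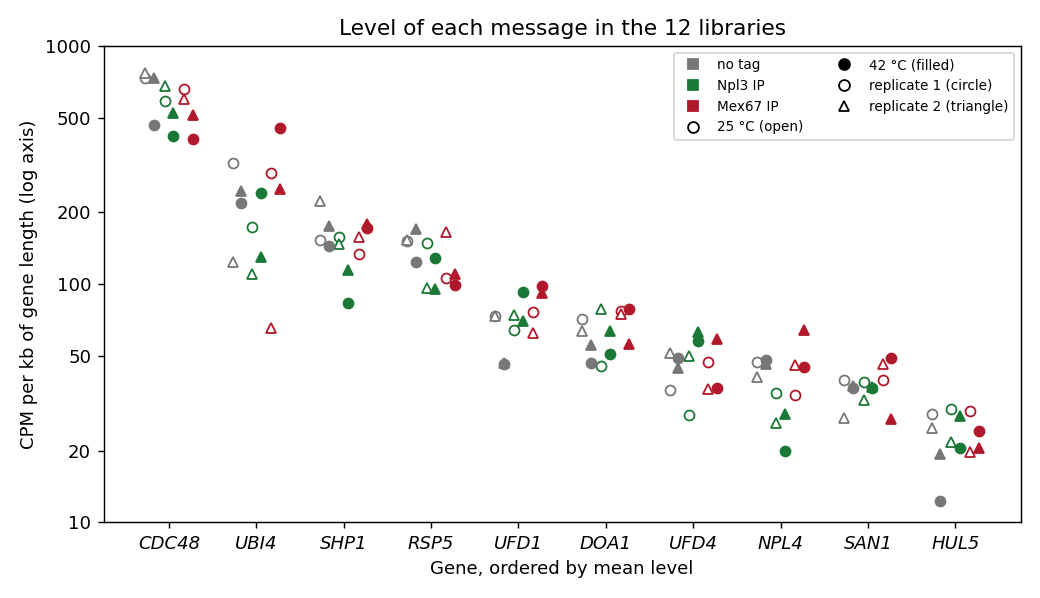
CPM per kb of gene length (log axis) of the 10 genes in the 12 libraries, with strains in colour, 25 °C as open and 42 °C as filled symbols, replicate 1 as circles and replicate 2 as triangles. CDC48 is at the top with little spread, and UBI4 has the widest spread of the 10, from 65.41 to 452.9 CPM per kb.

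The 10 messages differed in how much they varied. UBI4 had an SD of 0.77 on the log2 CPM scale over the 12 libraries, and its highest library was 6.924 times its lowest. NPL4 came next with an SD of 0.44, and SAN1 had the lowest, 0.24. The median SD over the protein-coding genes was 0.64, so that UBI4 lay at the 62.21st percentile and the other 9 genes between the 0.9132nd and the 21.08th. These SDs mix groups and replicates. A longer gene collects more counts at the same level and so carries less counting error. The median length of the 10 genes was 1990.5 bp against 1287 bp for the protein-coding genes. UBI4, UFD1 and SHP1 were shorter than 1287 bp and lay at the 62.21st, 6.722nd and 8.898th percentiles of the SD. The part of length in these SDs was not tested.

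UBI4 (YLL039C, build R64, chromosome XII, 64062 to 65207) encodes ubiquitin as a head-to-tail chain of repeats and is the ubiquitin gene known to be induced by stress. At 25 °C it stood at 371.1 and 142.4 CPM in the control, 198.5 and 126.5 in Npl3 IP, and 336.0 and 74.95 in Mex67 IP (replicates 1 and 2). At 42 °C it stood at 250.9 and 281.9 CPM in the control, 276.8 and 149.4 in Npl3 IP, and 519.0 and 286.9 in Mex67 IP. The highest value of all was thus a heated Mex67 library and the lowest an unheated one, but the 2 Mex67 groups overlapped, because replicate 1 at 25 °C lay above replicate 2 at 42 °C.

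Replicate 1 of UBI4 exceeded replicate 2 in all 3 groups at 25 °C and in 5 of the 6 groups. The a-cell markers ran the other way, lower in replicate 1 of every group, and the part of that difference in the UBI4 values was not tested. Within the divided cultures, UBI4 moved by 0.62 and 1.89 on the log2 scale from 25 to 42 °C in Mex67 IP and by 0.47 and 0.23 in Npl3 IP. In the control it moved by −0.56 and 0.97, and the culture with the negative value is the one whose heated library lacked the heat shift. UBI4 was thus higher at 42 °C in 5 of 6 cultures.

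In the fit without pairing, the heat change of UBI4 was 0.98 ± 0.65 in Mex67 IP (log2 ± SE; a 1.972-fold difference, 95% interval −0.43 to 2.38), with an adjusted p of 0.5841 by edgeR's quasi-likelihood test with Benjamini-Hochberg adjustment. With the culture as a block it was 1.23 ± 0.44, with an adjusted p of 0.221 by the same test, and this did not pass either. It rested on single libraries: it was 2.42 without replicate 1 of Mex67 at 25 °C, 0.31 without replicate 2 there and 0.51 without replicate 1 at 42 °C (UBI4 in each case). For Npl3 IP it was 0.39 ± 0.64 (edgeR adjusted p 0.8537), and for the control 0.06 ± 0.67 (edgeR adjusted p 1), or 0.13 ± 0.84 without the heated library that stood apart.

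Counts of UBI4 carry an uncertainty from shared sequence. Its repeats resemble each other and the ubiquitin parts of the fusion genes RPL40A, RPL40B and RPS31, and the sources used here do not give the treatment of reads with several positions. The fusion genes encode ubiquitin joined to a ribosomal protein. RPS31 stood at 1013 to 4106 CPM at 25 °C and at 228.8 to 2426 at 42 °C, and its lowest value was replicate 1 of Mex67 at 42 °C, the library with the most UBI4. RPL40A was also lowest there, at 79.72 CPM against 292.1 to 1174 in the 6 libraries at 25 °C, and RPL40B was lowest there too, at 66.96 CPM against 258.5 to 976. The 4 ubiquitin genes together had a median heat change of −1.02 in Mex67 IP, where the median of all tested features was 0.05. In Npl3 IP it was −1.18 (all features 0.10) and in the control −0.67 (all features −0.07). In each of these, 1 of the 4 was above 0. None of the 3 fusion genes passed edgeR's adjusted threshold in any of the 12 comparisons, nor that of DESeq2. In each of 3 comparisons 1 of them was lower at an unadjusted p under 0.05 by edgeR. These were the heat change of Npl3 IP, Mex67 IP against the control at 42 °C and Mex67 IP against Npl3 IP at 25 °C. Of all features 11%, 11.5% and 23.5% passed there, in either direction.

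CDC48 (YDL126C, chromosome IV, 236157 to 238664) stood at 1843 and 1934 CPM in the control at 25 °C, 1477 and 1705 in Npl3 IP, and 1649 and 1501 in Mex67 IP. At 42 °C the values were 1171 and 1841 CPM in the control, 1049 and 1306 in Npl3 IP, and 1023 and 1290 in Mex67 IP. In each strain both heated libraries lay below both unheated ones, so the groups did not overlap, though in the control by only 1841 against 1843 CPM.

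Within cultures CDC48 was lower at 42 °C by the log2 values −0.65 and −0.07 in the control, −0.49 and −0.38 in Npl3 IP, and −0.69 and −0.22 in Mex67 IP. It was the only one of the 10 messages that was lower in all 6 cultures, as were 6.25% of the tested features. None of the 10 was higher in all 6, as were 4.61% of the features. Over groups, the heat change of CDC48 was −0.32 ± 0.49 in the control, −0.43 ± 0.49 in Npl3 IP and −0.45 ± 0.49 in Mex67 IP (log2 ± SE), with edgeR adjusted p-values of 1, 0.7543 and 0.7552. Without the heated control library that stood apart, the control's change was −0.04 ± 0.60.

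**Figure D2:**
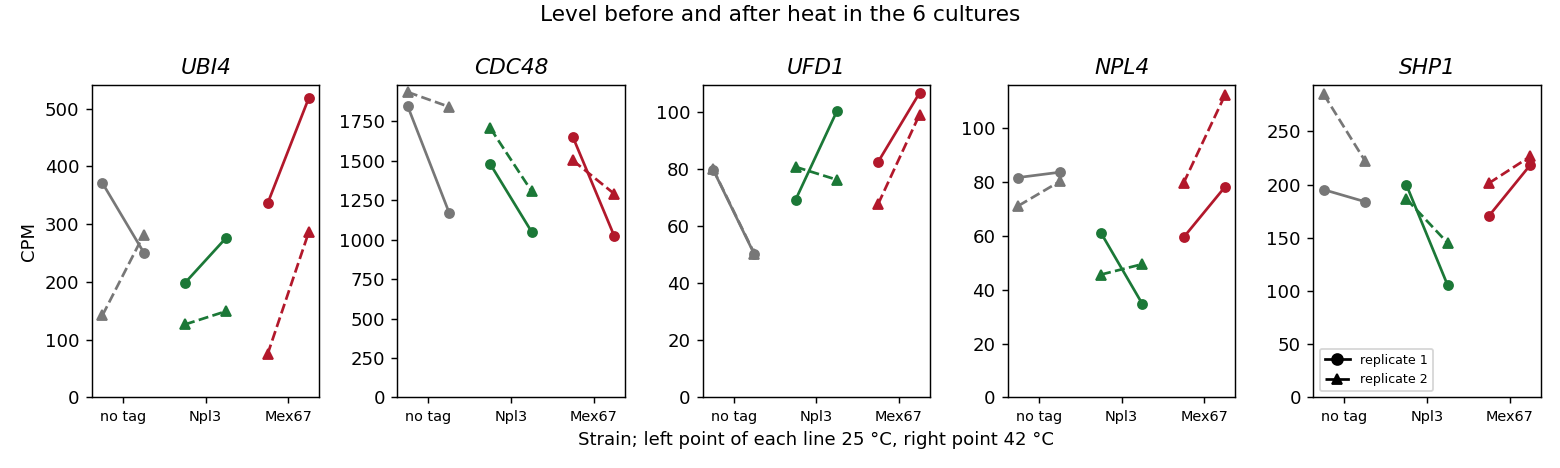
CPM at 25 °C (left point) and 42 °C (right point) of each culture for UBI4, CDC48, UFD1, NPL4 and SHP1, with replicate 1 as solid lines and replicate 2 as dashed lines. CDC48 slopes down in all 6 cultures, UFD1 goes down in both control cultures and up in both Mex67 cultures, and NPL4 and SHP1 go up in both Mex67 cultures.

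The 5 messages whose level over the 12 libraries was most like that of CDC48, by Pearson's correlation of log2 CPM among 2246 genes averaging 50 counts or more, were GVP36 (0.901), SLY1 (0.888), RFC1 (0.872), DUG1 (0.865) and GCS1 (0.858). For UBI4 they were VID24 (0.848), TPH3 (0.816), CTT1 (0.803), SPI1 (0.793) and PCL5 (0.771). Points share their libraries and depth, 6 groups and replicate numbers, so these values describe these 12 libraries only. CTT1, the cytosolic catalase gene, is itself a known stress gene.

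UFD1 and NPL4 encode a pair of proteins that bind Cdc48 together and hold ubiquitin-marked substrates. UFD1 (YGR048W, chromosome VII, 589826 to 590911) stood at 79.91 and 80.10 CPM in the control at 25 °C, 69.42 and 80.87 in Npl3 IP, and 82.71 and 67.93 in Mex67 IP. At 42 °C it stood at 50.19 and 50.43 CPM in the control, 100.5 and 76.36 in Npl3 IP, and 106.8 and 99.22 in Mex67 IP. The heated control was the lowest of the 6 groups and heated Mex67 was above it and above both unheated Mex67 libraries, without overlap. The value of 50.19 CPM in the smallest library rests on 3 counts, with an exact Poisson 95% interval of 10.35 to 146.7 CPM that covers counting error only.

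NPL4 (YBR170C, chromosome II, 576344 to 578086) stood at 81.69 and 71.20 CPM in the control at 25 °C, 61.09 and 45.64 in Npl3 IP, and 59.45 and 79.64 in Mex67 IP. At 42 °C it stood at 83.65 and 80.22 CPM in the control, 34.75 and 49.51 in Npl3 IP, and 78.13 and 112.2 in Mex67 IP. The lowest library of all was Npl3 at 42 °C and the highest was Mex67 at 42 °C, and these 2 groups did not overlap.

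The ratio of UFD1 to NPL4, each in CPM per kb, varied between libraries, and this variation was not tested. The ratio was 1.57 and 1.806 in the control at 25 °C, 1.824 and 2.844 in Npl3 IP, and 2.233 and 1.369 in Mex67 IP. After heat it was 0.963 and 1.009 in the control, 4.643 and 2.475 in Npl3 IP, and 2.195 and 1.42 in Mex67 IP. The heated control was therefore the lowest group and heated Npl3 held the highest single value. In the heated control the ratio of 0.963 rests on 3 counts of UFD1 and 5 of NPL4. Over the 12 libraries the log2 CPM of UFD1 and NPL4 correlated at −0.221.

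SHP1 (YBL058W, chromosome II, 111437 to 112708) encodes a UBX-domain cofactor of Cdc48 that is also known as a regulator of protein phosphatase 1. It stood at 195.3 and 284.8 CPM in the control at 25 °C, 199.9 and 186.6 in Npl3 IP, and 170.6 and 201.4 in Mex67 IP. At 42 °C the values were 184.0 and 222.3 CPM in the control, 105.5 and 145.2 in Npl3 IP, and 218.4 and 226.5 in Mex67 IP. Heated Npl3 held the lowest values, below all 4 libraries of the heated control and heated Mex67.

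SHP1 and NPL4 had the highest correlation of the 45 pairs among the 10 genes, 0.744 over the 12 libraries in log2 CPM, and UFD4 and SAN1 the lowest, −0.592. The ratio of CDC48 to NPL4 per kb was 9.099 and 7.992 in heated Mex67 IP and 20.97 and 18.33 in heated Npl3 IP, with a range of 7.992 to 25.96 over all libraries. CDC48 over UFD1 was 8.633 to 10.46 in the 6 unheated libraries. After heat it spread to 10.1 and 15.81 in the control, 4.517 and 7.404 in Npl3 IP, and 4.146 and 5.629 in Mex67 IP.

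DOA1 (YKL213C, chromosome XI, 31960 to 34107) encodes a WD-repeat cofactor of Cdc48 that helps keep the pool of free ubiquitin. It stood at 152.7 and 136.5 CPM in the control at 25 °C, 97.18 and 168.2 in Npl3 IP, and 165.4 and 161.6 in Mex67 IP. At 42 °C it stood at 100.4 and 119.2 CPM in the control, 109.2 and 135.9 in Npl3 IP, and 169.0 and 120.8 in Mex67 IP. Only the control groups were free of overlap between temperatures, with the heated one lower.

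UFD4 (YKL010C, chromosome XI, 421424 to 425875) encodes a HECT ligase of the ubiquitin fusion degradation pathway. At 25 °C it stood at 159.8 and 228.4 CPM in the control, 124.9 and 222.6 in Npl3 IP, and 209.4 and 161.6 in Mex67 IP. After heat it stood at 217.5 and 197.1 CPM in the control, 256.9 and 281.1 in Npl3 IP, and 162.6 and 261.0 in Mex67 IP. Heated Npl3 lay above the unheated Npl3 libraries and above the heated control, without overlap.

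RSP5 (YER125W, chromosome V, 410189 to 412618) encodes the yeast ligase of the Nedd4 family, which acts on membrane proteins through adaptors and on cytosolic proteins misfolded by heat. At 25 °C it stood at 369.4 and 370.8 CPM in the control, 362.3 and 234.6 in Npl3 IP, and 258.5 and 402.9 in Mex67 IP. After heat the values were 301.1 and 412.6 CPM in the control, 314.0 and 232.4 in Npl3 IP, and 240.8 and 267.5 in Mex67 IP. In every strain its heated and unheated libraries overlapped.

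HUL5 (YGL141W, chromosome VII, 238353 to 241085) encodes a HECT ligase that associates with the proteasome and marks misfolded cytosolic proteins. At 25 °C it stood at 78.13 and 68.23 CPM in the control, 81.91 and 59.25 in Npl3 IP, and 80.12 and 53.87 in Mex67 IP. Heated cells gave 33.46 and 52.72 CPM in the control, 55.85 and 76.36 in Npl3 IP, and 66.17 and 56.08 in Mex67 IP. The heated control was the lowest group, but its value of 33.46 CPM rests on 2 counts (exact Poisson 95% interval 4.052 to 120.9 CPM).

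SAN1 (YDR143C, chromosome IV, 742042 to 743874) encodes a RING ligase that marks misfolded proteins in the nucleus. At 25 °C it stood at 72.81 and 50.43 CPM in the control, 70.80 and 60.05 in Npl3 IP, and 72.37 and 84.32 in Mex67 IP. After heat it was at 66.92 and 68.76 CPM in the control, 67.02 and 67.97 in Npl3 IP, and 89.29 and 49.61 in Mex67 IP. It had the least spread of the 10 messages, and only unheated Mex67 against unheated Npl3 was free of overlap.

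**Figure D3:**
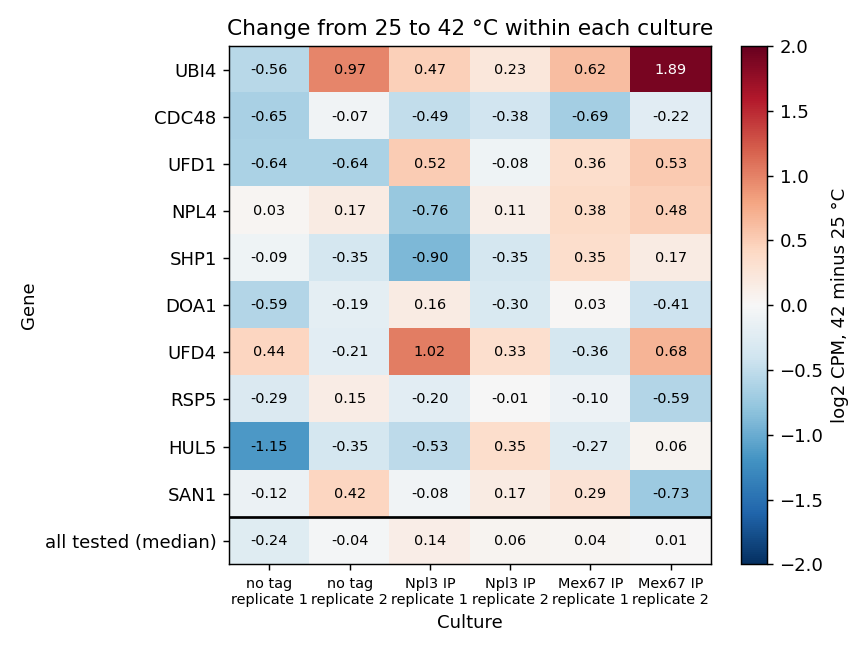
Log2 CPM at 42 °C minus 25 °C within each of the 6 cultures for the 10 genes, with the median of all tested features in the last row; red is higher and blue lower at 42 °C. CDC48 is blue in all 6 columns, and the darkest cell is UBI4 in replicate 2 of Mex67 IP, at 1.89.

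The question of the design was which messages each protein held at each temperature. Across the 12 comparisons drawn from it, edgeR called none of the 10 genes at an adjusted p under 0.05, in the fit as reported or in any of up to 21 alternative settings, and DESeq2 called none among those it gave an adjusted p. What follows gives the size of each comparison for these genes beside the same over all features. Comparisons with the control share its libraries, and those between temperatures share groups with the others.

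Heat came first. In the control, edgeR called 0% of all tested features and passed 2.12% before adjustment (p under 0.05), while DESeq2 called 0%; the 10 genes had 0, 0 and 0. The median change of the 10 genes was −0.12 on the log2 scale against −0.07 for all features, with 4 genes above 0, and without the library that stood apart it was −0.004. CDC48, UFD1, DOA1 and HUL5 were lower at 42 °C without overlap of the groups, a pattern that 18.5% of features showed, and none was higher without overlap (9.72% of features). All 4 were lower in the heated library that stood apart than in the other heated control, UFD1 by only 50.19 against 50.43 CPM. The other heated control also lay below both unheated ones for each of them.

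In Npl3 IP, edgeR called 0% of features after heat and passed 11% before adjustment (p under 0.05), while DESeq2 called 0.515%. None of the 10 genes passed any of these. Their median was −0.10 against 0.10 for all features, but it turned to 0.14 without replicate 1 of unheated Npl3 and ranged from −0.19 to 0.14 over the 21 alternatives. UFD4 was higher without overlap (26.4% of features were), and CDC48 and SHP1 were lower (18.6% of features were). SHP1 had the lowest adjusted p of the 10 here, at a log2 change of −0.62 ± 0.34 (edgeR adjusted p 0.5023).

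In Mex67 IP, edgeR called 0% of features after heat and passed 10.1% before adjustment (p under 0.05), while DESeq2 called 0.573% of the 2093 to which it gave an adjusted p. None of the 10 genes passed any of these, and DESeq2 gave an adjusted p to 6 of them. Their median was 0.03 against 0.05 for all features. UFD1 and SHP1 were higher without overlap (21.8% of features were) and CDC48 was lower (20.4% of features were). Even HSP26 was not called by edgeR here: it was at 6.44 ± 1.41 on the log2 scale, with an edgeR adjusted p of 0.3934 and a DESeq2 adjusted p of 7.325e-08.

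At 25 °C, Npl3 IP was set against the control. There edgeR called 2.4% of features and passed 20.6% before adjustment (p under 0.05), while DESeq2 called 7.03%, with none of the 10 genes among them. The 10 genes had a median of −0.20 against 0 for all features, and 1 of them, SAN1, was above 0. The sign turned with the processing. The median was 0.16 with a correction for gene length, with 6 genes above 0, where all features had 0.09. With total counts only it was 0.05, with 5 genes above 0, but all features had 0.25, so the 10 genes stayed below them. The 4 alpha-cell markers were also lower in Npl3 IP here, with a median of −5.23 and all 4 called by DESeq2 but none by edgeR (4 at an unadjusted p under 0.05), and their part in the values of the 10 genes was not tested. CDC48, NPL4 and RSP5 were lower in Npl3 IP without overlap (27% of features were), and none was higher without overlap (28.2% of features were). UBI4 differed by −0.67 ± 0.64 (edgeR adjusted p 0.5762, 95% interval −2.07 to 0.72) and CDC48 by −0.25 ± 0.49 (edgeR adjusted p 0.8022).

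For Mex67 IP against the control at 25 °C, edgeR called 0% of features and passed 3.87% before adjustment (p under 0.05), while DESeq2 called 0.0191%. None of the 10 genes passed. DOA1 was higher without overlap (16.8% of features were) and CDC48 was lower (15.8% of features were). UBI4 differed by −0.34 ± 0.65 (edgeR adjusted p 0.9994) and CDC48 by −0.26 ± 0.49 (edgeR adjusted p 0.9994). The median of the 10 was −0.14, and that of all features was 0.00. The median of the 10 turned to 0.14 with total counts only, with 9 genes above 0. All features had 0.26 there, so the 10 genes stayed below them. Without replicate 2 of unheated Mex67 it was 0.09, with 6 genes above 0, where all features had −0.02.

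For heated Npl3 IP against the heated control, edgeR called 7.45% of features, or 391, and passed 28.1% before adjustment (p under 0.05), while DESeq2 called 12.7%. The 391 calls fell to 1 without the library that stood apart, and to 0 without the other heated control or without replicate 1 of heated Npl3. Of the 10 genes none was called, and NPL4 alone had an unadjusted p under 0.05, a share of the 10 below that of all features. NPL4 was lower in Npl3 IP by the log2 value −0.93 ± 0.40, with an edgeR adjusted p of 0.1511. Without the library that stood apart it was −0.98 ± 0.45 (NPL4, edgeR adjusted p 0.2438), and with a correction for gene length it was −0.55.

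UFD1, UFD4 and HUL5 were higher in heated Npl3 IP than in the heated control without overlap, as were 34.9% of features, and NPL4 and SHP1 were lower, as were 24.5%. The differences were 0.81 ± 0.39 for UFD1 (edgeR adjusted p 0.1909), or 0.73 ± 0.42 without the library that stood apart, and −0.72 ± 0.36 for SHP1 (edgeR adjusted p 0.2091), or −0.89 ± 0.42 without it. UBI4 differed by −0.34 ± 0.66 and CDC48 by −0.36 ± 0.49, with edgeR adjusted p-values of 0.7865 and 0.6725. Without that library UBI4 differed by −0.49 and CDC48 by −0.71.

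The signs of some of these values moved with the correction for gene length. CDC48 turned from −0.36 to 0.12, and UFD4 went from 0.39 ± 0.41 to 1.12 ± 0.39 (edgeR adjusted p 0.1077). The median of all features went from 0.10 to 0.25. Without the library that stood apart UFD4 was at 0.38 and HUL5, at 0.47 otherwise, was at 0.27. UFD4 is the longest of the 10 genes at 4452 bp, and UFD1 the shortest at 1086 bp.

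For heated Mex67 IP against the heated control, edgeR called 0% of features and passed 11.5% before adjustment (p under 0.05), while DESeq2 called 14.4% of the 263 features to which it gave an adjusted p, CDC48 being the only one of the 10 genes among those 263. UFD1 was higher by 1.03 ± 0.39 (a 2.046-fold difference, unadjusted p 0.01912, edgeR adjusted p 0.4204), and by 1.08 ± 0.42 without the library that stood apart. UFD1 ranged from 0.98 to 1.60 over the alternatives. It was the only one of the 10 with an unadjusted p under 0.05.

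UBI4, UFD1, DOA1 and HUL5 were higher in heated Mex67 IP without overlap (27.1% of features were) and RSP5 was lower (18.8% of features were). The 10 genes had a median of 0.16 against 0.13 for all features, with 8 above 0. UBI4 differed by 0.59 ± 0.66 (edgeR adjusted p 0.7497), or 0.57 without the library that stood apart, and CDC48 by −0.39 ± 0.49 (edgeR adjusted p 0.7773), or −0.63 without it.

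The 2 proteins were also compared directly, which leaves the control out. At 25 °C edgeR called 2.8% of features between Mex67 IP and Npl3 IP and passed 23.5% before adjustment (p under 0.05), while DESeq2 called 6.82%, and none of the 10 genes passed. The 4 alpha-cell markers had a median of 4.42 here. SAN1 was higher in Mex67 IP without overlap (28.2% of features were) and none was lower (28.6% of features were). UBI4 differed by 0.34 ± 0.65 and CDC48 by −0.01 ± 0.49 (edgeR adjusted p 0.7832 and 0.9895), the interval for CDC48 running from −1.07 to 1.04.

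At 42 °C edgeR called 3.93% of features between Mex67 IP and Npl3 IP and passed 23.2% before adjustment (p under 0.05), while DESeq2 called 6.33%. None of the 10 genes was called, and NPL4 and SHP1 had an unadjusted p under 0.05, a share close to that of all features. NPL4 was higher in Mex67 IP by 1.15 ± 0.36, a 2.212-fold difference with a 95% interval of 0.37 to 1.92 on the log2 scale. Its adjusted p of 0.08491 by edgeR was the lowest of any of the 10 genes in any comparison, and DESeq2 gave NPL4 0.1441. Without replicate 1 of heated Npl3 the difference of NPL4 was smallest among the libraries left out, at 0.92 with an edgeR adjusted p of 0.5242, and with a correction for gene length it was 0.82 (edgeR adjusted p 0.2057).

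SHP1 was higher by 0.82 ± 0.34 in the same comparison (edgeR adjusted p 0.1711), and UBI4 by 0.93 ± 0.64 (edgeR adjusted p 0.4159). UBI4, NPL4 and SHP1 were higher in heated Mex67 IP without overlap, as were 23.5% of features, and none of the 10 was lower, as were 30% of features. CDC48 itself differed by −0.03 ± 0.49 (edgeR adjusted p 0.9844).

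**Figure D4:**
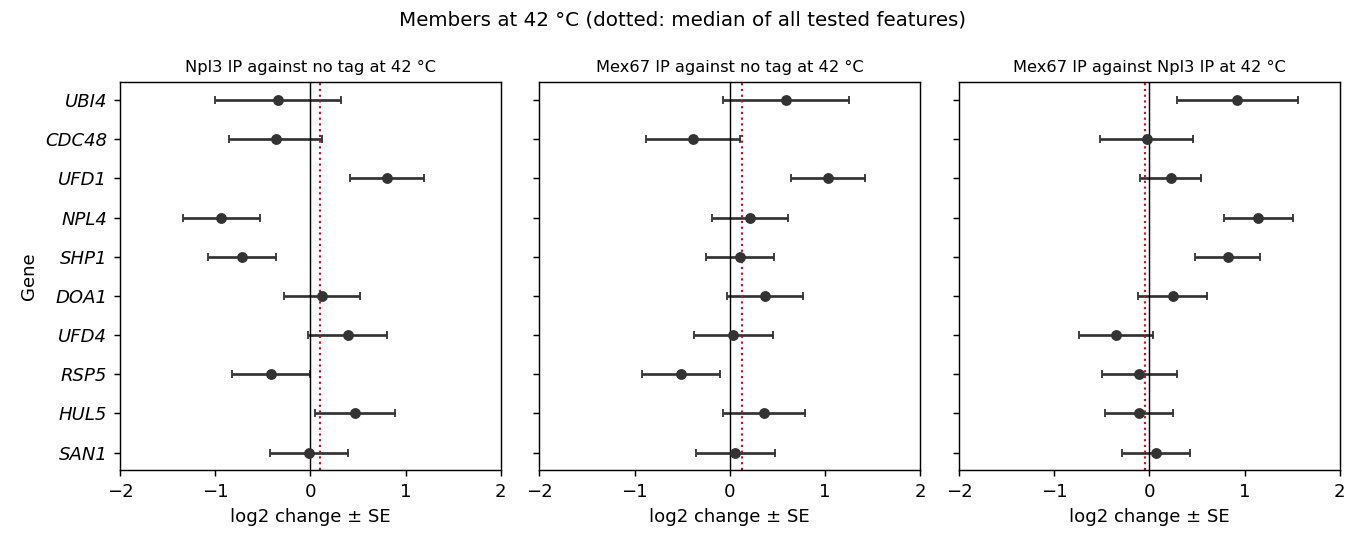
Log2 change ± SE of the 10 genes in the 3 comparisons at 42 °C, with the median of all tested features as a dotted line. NPL4 lies at −0.93 in Npl3 IP against the control and at 1.15 in Mex67 IP against Npl3 IP, UFD1 lies at 0.81 and 1.03 against the control, and CDC48 stays within its SE of 0 in all 3.

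Interaction terms tested whether the heat change differed between strains. For Mex67 IP minus Npl3 IP, edgeR called 0% of features and passed 1.26% at an unadjusted p under 0.05, for Npl3 IP minus the control 0% and 2.92%, and for Mex67 IP minus the control 0% and 3.55%, and DESeq2 called 0% in each. Of the 10 genes, UFD1 alone had an unadjusted p under 0.05, in Mex67 IP minus the control, at 1.12 ± 0.52 (edgeR adjusted p 0.9961, unadjusted p 0.04954). Without the heated control library that stood apart, UFD1 was at 1.16 ± 0.54. UBI4 had terms of 0.59 ± 0.91, 0.34 ± 0.92 and 0.92 ± 0.93 in that order of the 3 comparisons, with edgeR adjusted p-values of 1, 0.9999 and 0.9999. CDC48 had −0.01 ± 0.69, −0.12 ± 0.69 and −0.13 ± 0.69. Without the library that stood apart, the terms against the control were 0.15 (Npl3 IP) and 0.90 (Mex67 IP) for UBI4, and −0.49 and −0.37 for CDC48. The intervals were wide: for UBI4 in Mex67 IP minus Npl3 IP it ran from −1.38 to 2.56.

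The rest of the pathway was read from lists of 109 further genes, of which 108 were tested. Calls among them fell on the same 4 comparisons as those among all features, and at similar shares. In Npl3 IP against the control edgeR called 2 of the 108 higher and none lower at 25 °C (1.85% against 2.4% of all features), and 6 higher and 1 lower at 42 °C (6.48% against 7.45%). Between Mex67 IP and Npl3 IP it called 4 lower at 25 °C (3.7% against 2.8%), and 1 higher and 3 lower at 42 °C (3.7% against 3.93%). In the other 8 comparisons edgeR called none of the 108 and DESeq2 called none, with 0 to 9 of them at an unadjusted p under 0.05. The 9 were in Mex67 IP against the control at 42 °C, where 11.5% of all features passed. With the divided cultures as a block, edgeR called 46 of all 5245 tested features after heat in Npl3 IP. Of the 108 it called 1, CSR2, listed as an Rsp5 adaptor, at 2.72 ± 0.57 (edgeR adjusted p 0.0434).

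Among the activating and conjugating enzymes, 12 of 13 listed genes were tested, and their median difference between Npl3 IP and the control was 0.97 at 25 °C and 1.14 at 42 °C, with 11 of 12 above 0 at each temperature, where all features had medians of 0 and 0.10. With a correction for gene length these medians were 0.41 and 0.38, with 10 of 12 above 0, where all features had 0.09 and 0.25. Without the library that stood apart the median at 42 °C was 1.12. MMS2, a ubiquitin-conjugating enzyme variant that works with Ubc13 in DNA damage tolerance, stood at 49.72 and 26.7 CPM in the control at 25 °C and at 183.3 and 148.9 in Npl3 IP. At 42 °C MMS2 stood at 16.73 and 50.43 CPM in the control, the first from 1 count, and at 435.6 and 207.3 in Npl3 IP. MMS2 rose in Npl3 IP by 2.08 ± 0.50 at 25 °C and by 2.93 ± 0.55 at 42 °C (edgeR adjusted p 0.04953 and 0.01805).

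UBC1, a conjugating enzyme that extends chains, was higher in Npl3 IP at 42 °C by 1.91 ± 0.45 (edgeR adjusted p 0.02631), and UBC8, known from the breakdown of gluconeogenic enzymes, by 2.95 ± 0.65 (edgeR adjusted p 0.02312). OTU2, a deubiquitinating enzyme of the OTU family, was higher by 2.44 ± 0.47 at 25 °C and 2.16 ± 0.51 at 42 °C (edgeR adjusted p 0.0324 and 0.02679). BSD2, an Rsp5 adaptor of the endomembrane system, and RQT4, of the ribosome quality control trigger complex, were also called higher at 42 °C, by 2.84 ± 0.69 and 2.33 ± 0.66 (edgeR adjusted p 0.0299 and 0.04911).

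RPN10, a ubiquitin receptor of the proteasome, was lower and not higher in Npl3 IP, and was lowest in heated Npl3 IP, as NPL4 and SHP1 were. It stood at 85.64 and 88.11 CPM in heated Npl3 IP, at 200.8 and 252.1 in the heated control and at 245.5 and 282.6 in heated Mex67 IP. RPN10 was lower in Npl3 IP than in the control by the log2 value −1.41 ± 0.36 (edgeR adjusted p 0.03452) and higher in Mex67 IP than in Npl3 IP by 1.60 ± 0.34 (edgeR adjusted p 0.0383).

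Without the library that stood apart, none of these genes kept its call in Npl3 IP against the control at 42 °C, while the log2 values moved little in most. They were 2.58 for MMS2, 1.91 for UBC1, 2.94 for UBC8, 2.14 for OTU2, 2.34 for BSD2, 1.95 for RQT4 and −1.60 for RPN10, with edgeR adjusted p-values from 0.09434 (MMS2) to 0.1553 (RQT4).

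The pathway calls depended on single libraries and settings. The 8 genes called in any comparison had lengths of 499 to 1593 bp with a median of 793.5, against 1698 for the tested pathway genes, and a correction for gene length left 0 calls at 25 °C and 6 at 42 °C for Npl3 IP against the control, and 0 between the proteins. Some of the lost calls kept their size under that correction: OTU2 was at 2.30 in Npl3 IP against the control at 25 °C, and RPN10 at 1.79 in Mex67 IP against Npl3 IP at 42 °C. At 25 °C none of the 108 was called in Npl3 IP against the control when any 1 of the 4 libraries compared was left out, and leaving out any of the other 8 gave 1 to 3 calls. At 42 °C none was called without either heated control library or without replicate 1 of heated Npl3, and leaving out any other gave 6 to 8. Between Mex67 IP and Npl3 IP at 25 °C, leaving out any 1 of the 4 libraries compared left no call, and any other left 2 to 5. At 42 °C no call was left without replicate 1 of heated Npl3, replicate 2 of Mex67 at either temperature, either heated control or replicate 2 of the unheated control.

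The lists nearest to the 10 genes held no call. Of 17 tested Cdc48 partners and substrate-processing genes, and of 20 quality-control ligases (both lists include members of the 10), edgeR and DESeq2 called none in any comparison. By edgeR, 0 to 3 and 0 to 4 of them had an unadjusted p under 0.05. The 3 of 17 were in Mex67 IP against Npl3 IP at 42 °C (23.2% of all features). The 4 of 20 were in Npl3 IP against the control at 25 °C (20.6% of all features). The Cdc48 list had 13 of 17 genes above 0 after heat in Mex67 IP with a median of 0.30 (all features 0.05), and 5 of 17 with −0.07 in the control (all features −0.07). The quality-control ligases had a median of −0.39 in Npl3 IP against the control at 25 °C with 3 of 20 above 0, where all features had a median of 0. Their median is not given here with the correction for gene length. That correction took the median of the 10 genes in the same comparison from −0.20 to 0.16. The 14 genes of endoplasmic reticulum-associated degradation, in which Cdc48, Ufd1 and Npl4 extract proteins from the membrane, had medians after heat of −0.16 in the control, 0.35 in Npl3 IP and 0.21 in Mex67 IP, also without a call by edgeR.

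Adaptors bring Rsp5 to its substrates. Of the 19 tested, 17 were above 0 after heat in Npl3 IP and 17 in Mex67 IP, with medians of 0.44 and 0.54 where all features had 0.10 and 0.05. RSP5 itself had −0.13 ± 0.40 and −0.38 ± 0.40, values with intervals that span 0 and with the other sign in 3 and 1 of the 21 alternatives, and the difference from the adaptors was not tested. None of the adaptors was called after heat by edgeR or DESeq2, and 3 and 2 of the 19 had an unadjusted p under 0.05, against 11% and 10.1% of all features. In Mex67 IP against Npl3 IP the adaptors already had a median of 0.50 at 25 °C. There 5 of 19 had an unadjusted p under 0.05 (23.5% of all features). The heat change of Mex67 IP minus that of Npl3 IP had a median of 0.004 in this list. At 42 °C Mex67 IP against Npl3 IP gave the adaptors a median of 0.54, with 7 of 19 at an unadjusted p under 0.05 (23.2% of all features). None was called by edgeR or DESeq2. The adaptor medians are not given here with the correction for gene length. That correction took the median of the 10 genes in the 42 °C comparison from 0.15 to −0.20. LDB19 and ECM21, both arrestin-related adaptors, were at 1.25 ± 0.36 and 1.34 ± 0.42 there (edgeR adjusted p 0.06868 and 0.08254).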

How the data were processed

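The deposited values were raw counts per gene feature, 1 table per library. Per the submitters' processing notes the authors worked on build R64 with STAR, CASAVA 1.8.2, DESeq2 and featureCounts (Subread 1.5.0-p1). How strand and multi-mapped reads were handled is not given in the sources used here. In the annotation no gene overlaps any of the 10.

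Features were joined to symbols, coordinates and lengths by locus tag (6048) or by symbol or synonym (121), and 957 were not joined. Tests used R 4.3.3 with edgeR 4.0.16 and limma 3.58.1: TMM scaling, filterByExpr (minimum 10 counts, 15 in total), a robust quasi-likelihood fit of all 12 libraries with 1 mean per group (6 residual degrees of freedom, common biological coefficient of variation 0.356), and Benjamini-Hochberg adjustment at 0.05 over all 5245 tested features within each of 12 comparisons. The SE of a log2 change was obtained by dividing its size by the root of F, so it rests on the spread over all 12 libraries. edgeR keeps p-values no smaller than counting error allows. A prior count of 2 was added before taking the log2 of each library's CPM. The depth per library limits precision, and intervals from counts cover counting error only.

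All 10 genes are named in every library, with changes for UBI4 and CDC48 in each comparison and for others with an unadjusted p under 0.05; other changes that the text gives were picked after their values were seen. The members and the pathway lists were chosen with earlier results of these data known. Alternatives were total counts only, RLE size factors, DESeq2 1.42.0, only the groups compared, a mean count of 50 or more, no low-count filter, offsets corrected for gene length (lowess, span 0.4), the culture or the replicate number as a block, and leaving out each of the 12 libraries. The pairing of temperatures comes from the growth protocol, in which each culture was divided. Deviations of the replicates correlated over 2247 genes at 0.266 (control), 0.114 (Npl3) and 0.601 (Mex67) between the temperatures. Simulated counts were used to test the edgeR fit for the heat change of Mex67 IP. Figures were drawn with matplotlib 3.10.9.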

Additional observations from a re-analysis of the deposited data

How the results depend on the processing

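No setting called any of the 10 genes. With the culture as a replicate block the heat change of UBI4 in Mex67 IP was 1.23 against 0.98 without it, and no block called any of the 10 genes. Over all features the culture block took the heat calls from 0 to 46 in Npl3 IP and from 0 to 3 in Mex67 IP. The replicate number was also used as a replicate block. Calls among the 108 pathway genes then went from 2 to 4 and from 7 to 8 for Npl3 IP against the control at 25 and 42 °C. For Mex67 IP against Npl3 IP they went from 4 to 6 and from 4 to 8. Calls among all 5245 tested features rose too, from 126 to 300 and from 391 to 513 for Npl3 IP against the control. For Mex67 IP against Npl3 IP they rose from 147 to 396 and from 206 to 456. No label ties the replicate number to a shared batch of libraries from different strains. Under that block UBI4 in the heat change of Npl3 IP minus the control turned to −0.002.

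Several small values turned sign. With total counts only, UBI4 was at −0.022 for heat in the control, 0.001 for Mex67 IP against the control at 25 °C and 0.093 for Npl3 IP against the control at 42 °C. CDC48 under that setting was at 0.004 for Mex67 IP against the control at 25 °C, 0.09 for Npl3 IP and 0.171 for Mex67 IP against the control at 42 °C, 0.007 and 0.081 for Mex67 IP against Npl3 IP at 25 and 42 °C, and 0.074, 0.094 and 0.168 for the interactions Mex67 minus Npl3, Npl3 minus control and Mex67 minus control. With offsets corrected for gene length CDC48 was at 0.201 and 0.124 for Npl3 IP against the control at 25 and 42 °C and at 0.056 for Mex67 minus Npl3. A mean of at least 50 counts gave CDC48 0.007 for Mex67 IP against Npl3 IP at 25 °C and only the groups compared gave 0.007 at 42 °C. Its Mex67 minus Npl3 term was 0.047 with only the groups compared, 0.014 with DESeq2, 0.015 with RLE size factors and 0.01 with no low-count filter.

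Leaving out each library gave UBI4 ranges of −0.432 to 0.911 (heat, control), −0.118 to 0.767 (heat, Npl3), −1.166 to 0.186 and −1.782 to 0.522 (Npl3 IP and Mex67 IP against the control at 25 °C), −0.843 to 0.043 (Npl3 IP against the control at 42 °C), −1.115 to 1.03 (Mex67 IP against Npl3 IP at 25 °C) and −0.524 to 0.713 (Npl3 minus control). For CDC48 they were −0.114 to 0.089 and −0.179 to 0.221 (Mex67 IP against Npl3 IP at 25 and 42 °C), −0.162 to 0.259, −0.489 to 0.081 and −0.369 to 0.203 (interactions in the order above). The cause of these turns was not tested. NPL4, HUL5 and SAN1 fell below the mean of 50 counts and have no value there. Over all features, calls ranged over the alternatives from 0 to 304 (126 reported) and 0 to 666 (391) for Npl3 IP against the control at 25 and 42 °C, 0 to 396 (147) and 0 to 456 (206) for Mex67 IP against Npl3 IP, 0 to 1 and 0 to 38 (0 and 0) for Mex67 IP against the control, and 0 to 46 and 0 to 12 (0 and 0) for heat in Npl3 IP and Mex67 IP. The depth of the smallest library leaves 2 to 70 counts for each of the 10 genes. The median of the 10 genes changed sign in at least 1 alternative in 8 of the 12 comparisons. That count does not set it against the median of all features, which also moved with the setting.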
